A study of Homo sapiens with 8 samples.

Results

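SORCS3, SORL1 and SORT1 encode sorting receptors of the VPS10 family and were followed in tumours grown from MDA-MB-231 cells labelled CDK4WT and CDK4KO. They are 3 of the 13546 genes in the deposited count table. The members were selected on measured values, namely the opposite differences of SORCS3 and SORL1 between CDK4KO and CDK4WT, with SORT1 for contrast. Their genotype differences are therefore given as a description, without a test. All 3 are in the table. SORCS3 entered it through its level in CDK4WT, since each listed gene exceeds 1 CPM, a read count scaled to the library total, in at least 4 libraries. With CDK4KO near 0, passing that filter required the genotypes to differ.

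VPS10 receptors are transmembrane proteins named after a yeast vacuolar sorting receptor. Their lumenal domain binds cargo in the Golgi, in endosomes or at the cell surface. Their short cytoplasmic tail binds clathrin adaptors on the way to endosomes, and the retromer complex on the way back. Sortilin, the product of SORT1, is present in many tissues and carries progranulin, prosaposin and proneurotrophins. SORL1 encodes SorLA, which also carries LDL receptor type repeats and routes the amyloid precursor protein. SORCS3 is best known from brain, where it is found at synapses.

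The labels give 4 CDK4WT and 4 CDK4KO libraries, all from tumours that MDA-MB-231 cells formed in nude mice. MDA-MB-231 is an established cell line from a human triple-negative breast cancer. The labels state neither how CDK4 was disrupted nor whether the CDK4KO cells are 1 clone, and they do not say that each tumour came from its own mouse. Tumours hold host cells too, and in bulk RNA fewer cells of a type and less RNA per cell cannot be told apart. Tumour age, mouse age and sex are not stated.

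Library totals were 27840883 to 33617977 reads. CDK4 mRNA averaged 113 ± 4.04 CPM over the CDK4WT libraries and 122 ± 9.66 CPM over those of CDK4KO (SD, n = 4 each), and did not pass the test (edgeR quasi-likelihood adjusted p = 0.477). This neither supports nor goes against the labels, since the mode of the knockout is not stated, and CDK4WT and CDK4KO are used throughout as the labels of the libraries. All 12 MDA-MB-231 markers on the list were measured, with a summed level of 14411 to 17059 CPM in CDK4WT and 12764 to 17228 CPM in CDK4KO. Of the 8 luminal breast markers, ESR1, PGR, CDH1 and TFF1 were not among the measured genes, and the other 4 summed to 115 to 127 CPM. CDK4KO replicates 1 and 4 correlated least with the mean of their group (r = 0.9885 and 0.99, against 0.9923 to 0.9972 in the other libraries), so member values are also given without them.

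The 3 genes lie on different chromosomes of hg38 and are protein-coding. SORCS3 (ENSG00000156395) spans chromosome 10 from 104641101 to 105265235, SORL1 (ENSG00000137642) chromosome 11 from 121452203 to 121633693, and SORT1 (ENSG00000134243) chromosome 1 from 109309568 to 109397951. SORCS3-AS1 runs antisense inside SORCS3 and AP000977.1 antisense to SORL1, and neither shares an exon base with the receptor. The sequence just before each gene is shown for the motifs it holds. RefSeq promoter windows (GRCh38.p14) are printed 5′ to 3′ on the gene's strand, only as far as the GENCODE 29 gene start, so the stretches differ in length and cover different parts of the windows. They are chr10:104641040-104641100 on the plus strand, chr11:121452064-121452202 on the plus strand and chr1:109397952-109398168 on the minus strand. Capitals mark an E2F-type octamer and an E-box.
SORCS3: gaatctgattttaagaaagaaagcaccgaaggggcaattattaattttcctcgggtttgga
SORL1: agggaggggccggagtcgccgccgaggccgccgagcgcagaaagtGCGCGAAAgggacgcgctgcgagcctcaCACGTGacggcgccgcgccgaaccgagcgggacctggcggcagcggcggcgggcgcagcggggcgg
SORT1: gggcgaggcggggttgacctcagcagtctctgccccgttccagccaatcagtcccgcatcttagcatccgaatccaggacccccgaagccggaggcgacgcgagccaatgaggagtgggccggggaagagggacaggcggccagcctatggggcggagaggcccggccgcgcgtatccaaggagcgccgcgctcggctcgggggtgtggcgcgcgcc

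Over the 250 bases before the RefSeq start, SORL1 held 45 CpG dinucleotides, SORT1 32 and SORCS3 27. The median over 27305 promoters of the same length was 11, and 0.619%, 9.26% and 17.3% of them held at least as many as SORL1, SORT1 and SORCS3. All 3 windows were GC-rich, at 80.4%, 74.0% and 66.0% G and C in that order, against a median of 58.0%. The E2F-type octamers searched on both strands were TTTCCCGC, TTTCGCGC, TTTGCCGC and TTTGGCGC, the sites bound by the factors that RB restrains. Any of them occurred in 2.79% of the promoters. Among the members, SORL1 held one, TTTCGCGC on the minus strand, 205 bases before the start. The E-box CACGTG, in 6.49% of promoters, was 177 bases before the start of SORL1. The window of SORCS3 and that of SORT1 held neither. The GC box GGGCGG, found in 42.3% of promoters, was in all 3, and TATAAA, found in 11.1%, in none of the 3.

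SORCS3 mRNA was close to zero in every CDK4KO tumour. The 4 CDK4WT libraries held 943, 118, 328 and 158 reads, or 29.9, 3.48, 11.8 and 5.48 CPM for replicates 1 to 4. The 4 CDK4KO libraries held 6, 2, 4 and 3 reads, or 0.205, 0.0602, 0.132 and 0.0973 CPM. The groups lay far apart, and the lowest CDK4WT tumour was 17.0 times the highest CDK4KO tumour. Summed reads were 1547 against 15, a 104-fold difference per library size with an exact 95% interval of 63.2 to 187 that covers counting error only. Fitted log2 fold changes are given as CDK4KO minus CDK4WT, and that of SORCS3, at -6.66 ± 0.96 (SE), was the most negative of all 13546 genes. Without CDK4WT replicate 1, the tumour with the most SORCS3, it was -5.78, and without CDK4KO replicates 1 and 4 it was -7.01. SORCS3 was the 1 gene of the table with under 10 reads in every CDK4KO library and over 100 in every CDK4WT library. No gene (0 of 13546) had the reverse pattern. Both thresholds were set after the counts of SORCS3 were seen.

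SORL1 stood the other way, at a low level in both genotypes. In CDK4WT it had 8.57, 5.75, 7.50 and 5.13 CPM in replicates 1 to 4. In CDK4KO it had 11.2, 16.3, 13.5 and 16.2 CPM. Every CDK4KO library lay above every CDK4WT library, with CDK4KO replicate 1 nearest to CDK4WT. Means were 6.74 CPM ± 1.58 and 14.3 CPM ± 2.43 (SD, n = 4 each), a 2.12-fold difference. The log2 fold change of 1.09 ± 0.17 (SE) was the 14th most positive in the table, and without CDK4KO replicates 1 and 4 it was 1.14. The reads behind it, 148 to 270 per CDK4WT library and 329 to 541 per CDK4KO library, put counting error well under this difference.

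SORT1 was by far the most abundant and differed least. CDK4WT tumours had 159.7, 169, 152 and 135 CPM and CDK4KO tumours 147, 134, 123 and 106 CPM, replicates 1 to 4. The groups overlapped, since CDK4KO replicate 1 lay above CDK4WT replicate 4. Means were 154 CPM ± 14.3 and 127 CPM ± 17.3 (SD, n = 4 each), with a log2 fold change of -0.28 ± 0.10 (SE), or -0.26 without CDK4KO replicates 1 and 4. None of the 3 members (0 of 3) was among the 8 genes past an edgeR adjusted p of 0.05, which is 0.0591% of the table. SORL1 was the 1 member with every CDK4KO library above CDK4WT, as 3.87% of all genes were, and SORCS3 the 1 member below, as 3.81% were. Since this contrast chose the members, nothing is read from these counts.

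**Figure D1:**
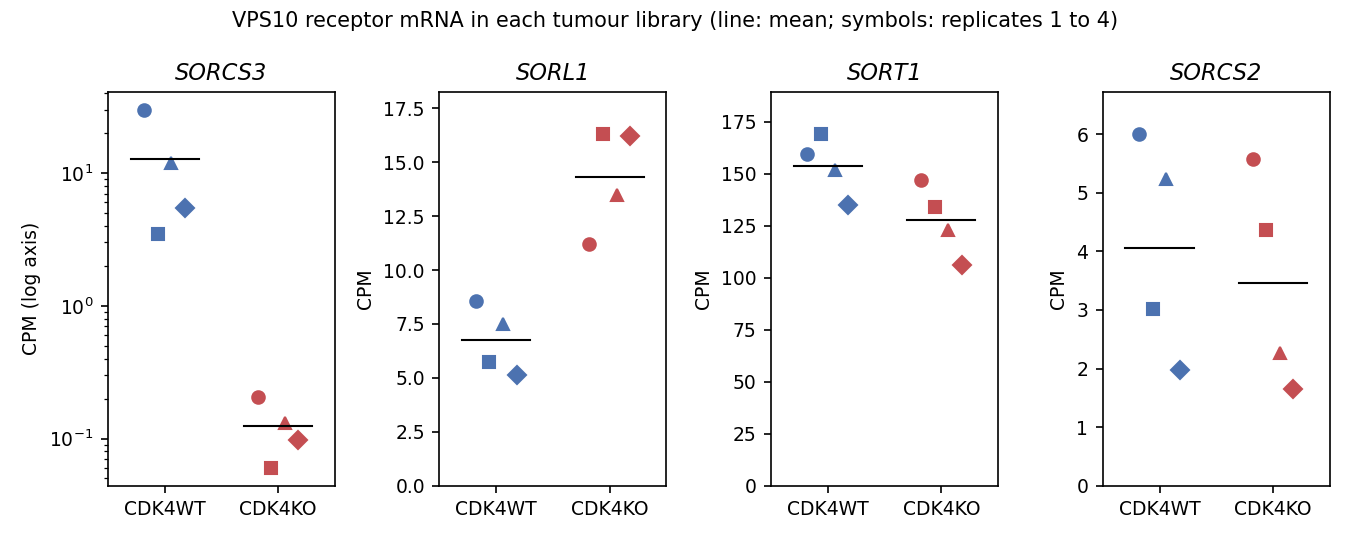
CPM of the 4 measured VPS10 receptor genes in each library, with symbols for replicates 1 to 4 and a line at the mean of each genotype; the SORCS3 axis is logarithmic. SORCS3 runs from 3.48 to 29.9 CPM in CDK4WT and stays at or below 0.205 CPM in CDK4KO, SORL1 is higher in every CDK4KO tumour, and SORT1 and SORCS2 overlap.

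The order of the receptors by mean level differed between the genotypes, both in CPM and after division by exon length. The levels that follow are CPM per kilobase of merged GENCODE exons, which understates a gene that uses few of its annotated exons. In CDK4WT, SORT1 stood first at 16.8 ± 1.56 CPM per kb, followed by SORCS3 at 2.20 ± 2.09, SORCS2 at 0.642 ± 0.297 and SORL1 at 0.346 ± 0.0812 (SD, n = 4). The ranges of SORCS3 and SORCS2 overlapped, as did those of SORCS2 and SORL1, so only SORT1 stood clear of its neighbour. In CDK4KO, SORT1 at 13.9 ± 1.89 CPM per kb was followed by SORL1 at 0.736 ± 0.125, SORCS2 at 0.548 ± 0.288 and SORCS3 at 0.0214 ± 0.0107. There SORL1 and SORCS2 overlapped, and SORCS3 lay below all others.

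Ratios within a library do not depend on library scaling and gave the same contrast tumour by tumour. Per exon length, SORL1 was 2.53%, 1.60%, 2.32% and 1.79% of SORT1 in CDK4WT replicates 1 to 4, and 3.62%, 5.72%, 5.18% and 7.23% in CDK4KO. The widest gap to CDK4WT was in CDK4KO replicate 4, the tumour with the least SORT1. SORCS3 was 29.8%, 3.28%, 12.3% and 6.44% of SORT1 in CDK4WT and 0.222%, 0.0713%, 0.170% and 0.146% in CDK4KO. On the log2 CPM scale with a prior count of 2, the SORL1 to SORT1 ratio differed by 1.37 between genotypes and the SORCS3 to SORL1 ratio by -6.75. In CDK4WT replicates 1 to 4, SORCS3 had 943, 118, 328 and 158 reads beside 270, 195, 209 and 148 of SORL1. SORL1 reads thus outnumbered those of SORCS3 in CDK4WT replicate 2 as they did in every CDK4KO library, and SORCS3 reads were the more numerous in the other CDK4WT libraries.

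**Figure D2:**
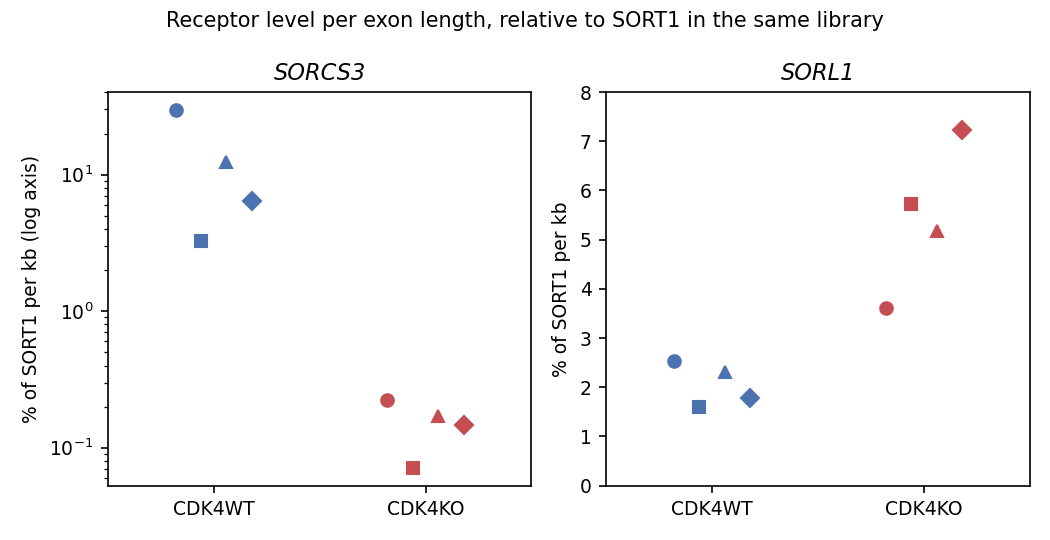
SORCS3 (logarithmic axis) and SORL1 (linear axis) per kilobase of exon as a percentage of SORT1 in the same library, with symbols for replicates 1 to 4. SORL1 lies between 1.60% and 2.53% in CDK4WT and between 3.62% and 7.23% in CDK4KO, and SORCS3 is at or below 0.222% in every CDK4KO library.

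SORCS3 also varied more between the CDK4WT tumours than any other gene compared. This measure does not use CDK4KO. Among 11418 genes with at least 100 reads in each CDK4WT library, the ratio of the highest to the lowest CDK4WT library had a median of 1.15. SORCS3 had 8.60, ahead of MAGEC2, a cancer-testis antigen, at 5.31, and FOS, an immediate-early transcription factor, at 4.99. Without CDK4WT replicate 1 the ratio was 3.38 and 2 genes exceeded it. Without replicate 2 it was 5.46 and without replicate 3 or 4 it was 8.60, in each case the highest of the genes compared. The lowest CDK4WT library of SORCS3 had 118 reads, just above the floor of 100, and genes under that floor were left out. TERT, a telomerase gene that ran from 3.12 to 23.8 CPM in CDK4WT, was not among the genes compared over all 4 libraries. SORL1 had a ratio of 1.67, which 1.89% of the genes reached, and SORT1 1.25, which 23.3% reached. In CDK4KO the ratios were 1.45 for SORL1 and 1.38 for SORT1, reached by 15.2% and 20.7% of 11352 genes with a median of 1.22. The ratio of SORCS3 there rests on 2 to 6 reads a library and was not compared.

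**Figure D3:**
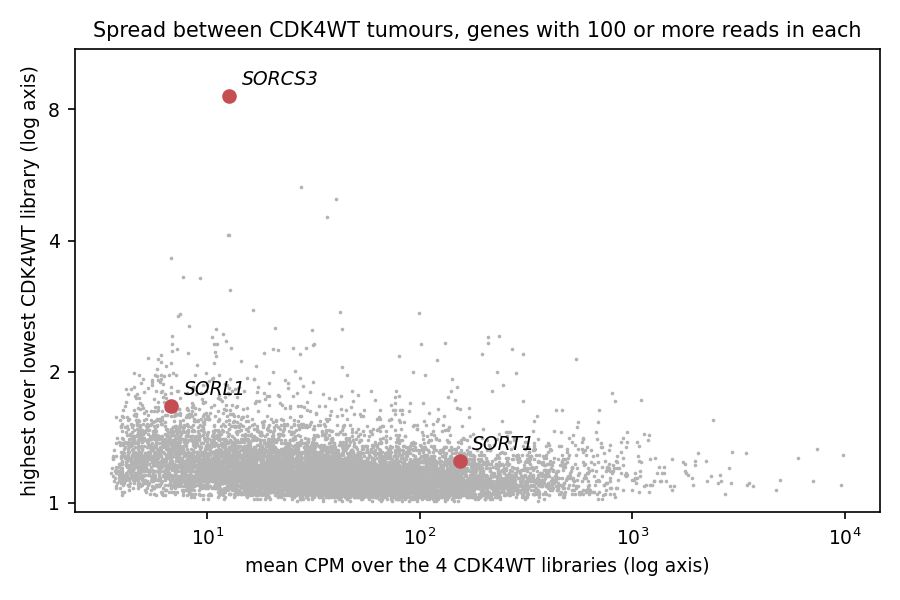
Each point is 1 of 11418 genes with at least 100 reads in every CDK4WT library; the x axis is the mean CPM over the 4 CDK4WT libraries and the y axis the highest over the lowest of them, both logarithmic. SORCS3 at 8.60 is the highest point, while SORL1 at 1.67 and SORT1 at 1.25 lie in or near the main cloud.

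SORCS2, a family member that binds proneurotrophins, was measured too. It had 6.0, 3.01, 5.24 and 1.98 CPM in CDK4WT and 5.57, 4.36, 2.27 and 1.65 CPM in CDK4KO, replicates 1 to 4. The ranges overlapped almost fully, with a log2 fold change of -0.23 ± 0.44 (SE; edgeR adjusted p = 0.869) that turned to 0.03 without CDK4WT replicate 1. SORCS2, SORL1 and SORCS3 were each highest in CDK4WT replicate 1 and next highest in CDK4WT replicate 3 among the CDK4WT tumours. With 4 tumours this is a description. SORCS1, the remaining member of the family, is not among the genes of the table.

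Measured genes beside SORCS3 did not share its level in CDK4KO. Of the 10 nearest on each side, across 7.33 Mb of chromosome 10, 13 had a positive and 7 a negative log2 fold change, from -0.27 to 0.70 with a median of 0.05. CFAP58, a cilia and flagella gene 186 kb upstream, stood at -0.09 ± 0.19 (edgeR adjusted p = 0.875). XPNPEP1, an aminopeptidase and the nearest measured gene downstream, at chromosome 10 from 109864766 to 109923553, stood at -0.10 ± 0.07 (0.570). No gene between SORCS3 and XPNPEP1 was measured, so the downstream side near the gene is not covered.

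Around SORT1, 19 of 20 neighbours on chromosome 1 were negative, with a median of -0.14 against 0.004 over all genes. Of all 13546 genes, 6613 were negative and 6933 positive. PSRC1, a spindle protein gene 26.4 kb away, stood at -0.26 ± 0.10 and PSMA5, a proteasome subunit gene 1.08 kb away, at -0.12 ± 0.06, beside -0.28 for SORT1 itself. Around SORL1, 15 of 20 neighbours on chromosome 11 were positive, with a median of 0.12 and a range of -0.99 to 0.38. SC5D, a cholesterol synthesis enzyme gene 144 kb upstream, stood at 0.35 ± 0.08 (unadjusted p = 0.000967, edgeR adjusted p = 0.118), and MIR100HG, a long noncoding RNA gene, at 0.17 ± 0.09 (0.465). Farther downstream, and named after their values were seen, GRAMD1B, a sterol transfer protein gene, stood at -0.97 ± 0.23 (unadjusted p = 0.00169, edgeR adjusted p = 0.143) and VWA5A at -0.99 ± 0.55, opposite in sign to SORL1. At an unadjusted edgeR p of 0.05, 5 neighbours of SORCS3, 7 of SORL1 and 7 of SORT1 passed, each of 20, where 13.0% of all genes did, and 0 passed the adjusted test. Whether copy number moved with these values was not tested.

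**Figure D4:**
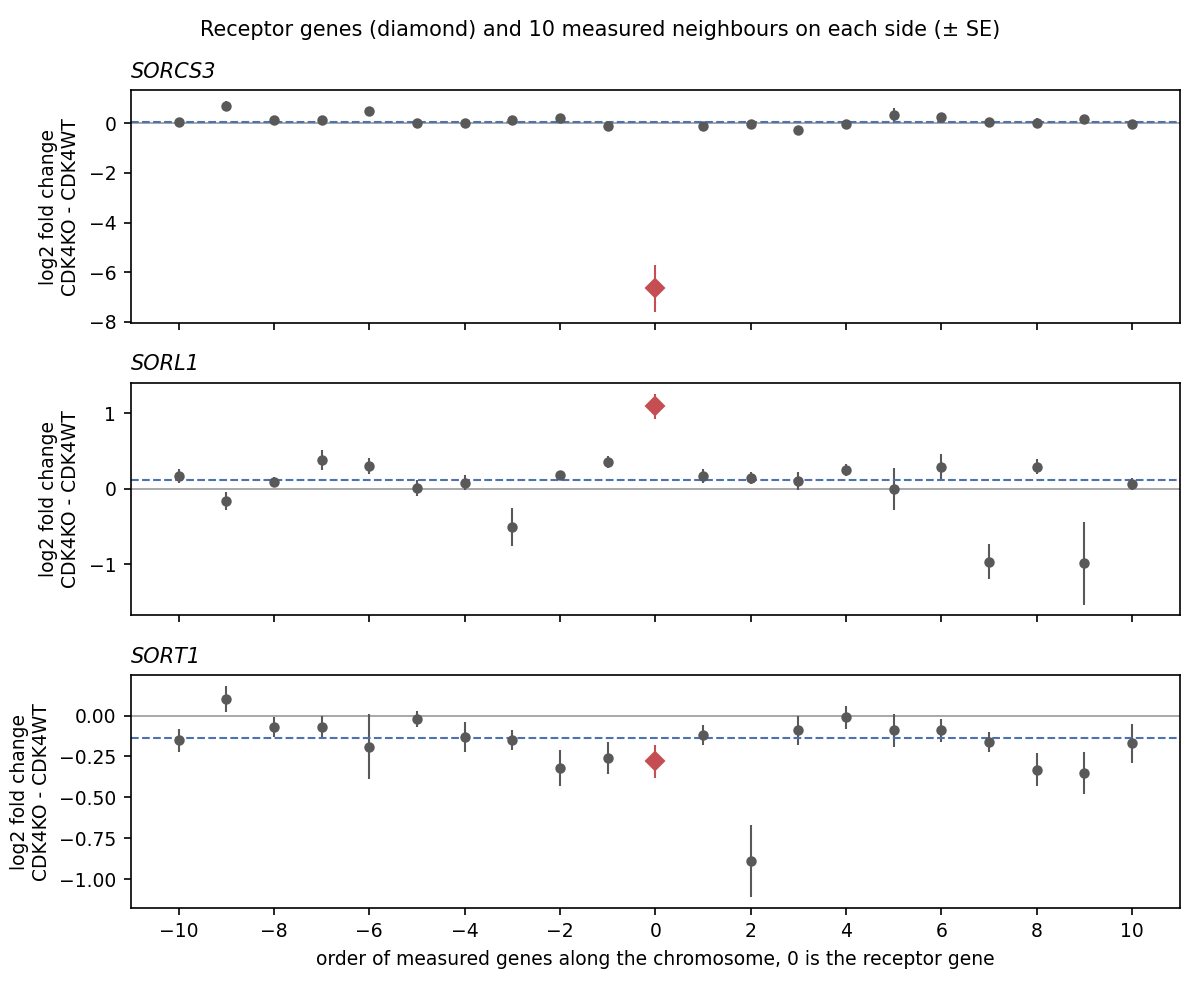
Log2 fold change, CDK4KO minus CDK4WT, of each receptor gene (diamond) and of the 10 nearest measured genes on each side in chromosomal order, with SE bars; the dashed line is the median of the neighbours and the y axes differ. SORCS3 at -6.66 lies below its neighbours (-0.27 to 0.70) and SORL1 at 1.09 above its own (-0.99 to 0.38). SORT1 at -0.28 lies among its neighbours, 19 of 20 of which are negative. This contrast chose the receptors, so their place beside unselected neighbours is a description.

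Profiles over all 8 libraries were compared by the root mean square difference of log2 CPM, each gene centred on its own mean, among 11440 genes with an average log2 CPM of at least 2. Such likeness includes the genotype difference that chose the members and is a description. No gene lay near SORCS3, whose own deviation was 2.96. The nearest was TERT, the telomerase reverse transcriptase, at 1.98, with 23.8, 4.75, 5.52 and 3.12 CPM in CDK4WT and 3.28, 0.542, 1.68 and 2.85 CPM in CDK4KO. TERT too was highest in CDK4WT replicate 1. KISS1, CA9, RCSD1 and EDIL3 followed at 2.29 to 2.43.

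SORL1, with a deviation of 0.60, had nearer neighbours in profile. SESN3, a sestrin, was at 0.26, FES, a tyrosine kinase, at 0.27, PHETA2 at 0.28, PLD5, of the phospholipase D family, at 0.29, and MYO5C, a class V myosin, at 0.31. SESN3 had 37.1, 19.3, 30.5 and 22.8 CPM in CDK4WT and 34.9, 51.4, 43.7 and 41.4 CPM in CDK4KO, with CDK4KO replicate 1 lowest as in SORL1. For SORT1, with a deviation of 0.20, TXNDC12 and PSRC1 were nearest at 0.05, then COMMD8 at 0.06, PDE10A at 0.07 and SDC1, the proteoglycan syndecan 1, at 0.08. PSRC1 is also one of the measured genes flanking SORT1 on chromosome 1, while PSMA5, the nearer one, was not among the 5 nearest profiles. PSRC1 had 35.0, 33.0, 32.6 and 29.5 CPM in CDK4WT and 30.9, 28.5, 26.3 and 22.9 CPM in CDK4KO.

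The machinery that VPS10 receptors use and the cargo they carry were followed in 7 lists of 146 genes, of which 131 were measured. None (0 of 131) passed edgeR's adjusted test, where 0.0591% of all genes did. At an unadjusted p of 0.05, 23 passed, or 17.6% against 13.0% of all genes, 6 higher and 17 lower in CDK4KO against 6.64% and 6.33% of all genes. The median log2 fold change was -0.01, beside 0.004 over all genes. DESeq2 called 7 of the 131 at an adjusted p of 0.05 (2.33% of all genes) and limma voom 6 (2.10%).

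Retrieval genes had log2 fold changes of -0.27 to 0.30. The 23 retromer and sorting nexin genes had a median of -0.00, with 2 higher and 2 lower at an unadjusted p of 0.05 (17.4%, against 13.0% of all genes). VPS26B, a retromer subunit, had 79.6, 78.1, 82.1 and 83.2 CPM in CDK4WT and 87.2, 92.8, 94.2 and 95.1 CPM in CDK4KO, without overlap (log2 fold change 0.19 ± 0.05, edgeR adjusted p = 0.186, DESeq2 0.0322). ANKRD50, which joins retromer to the WASH complex, stood at 0.30 ± 0.10, and the sorting nexin genes SNX2 and SNX12 at -0.17 ± 0.07 and -0.27 ± 0.10. VPS35, the retromer core named here outside the rule for named genes, was at 144 CPM ± 2.20 and 139 CPM ± 5.19 (SD, n = 4 each). In the WASH complex, which builds actin on endosomes, 0 of 6 genes passed at an unadjusted p of 0.05, with log2 fold changes of -0.07 to 0.07.

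Among 35 measured clathrin adaptor genes, 1 was higher and 4 lower at that unadjusted threshold (14.3%, against 13.0%), with a median of -0.00. PICK1, a PDZ and BAR domain scaffold known to bind the tail of SORCS3, had the widest difference. It had 10.5, 12.1, 9.47 and 12.8 CPM in CDK4WT and 6.77, 4.93, 4.87 and 6.94 CPM in CDK4KO, replicates 1 to 4. Every CDK4KO library lay below every CDK4WT library, with a log2 fold change of -0.93 ± 0.15 (edgeR adjusted p = 0.0508, DESeq2 8.96e-06, limma voom 0.0123). CLTB, a clathrin light chain, stood at 0.24 ± 0.08, AP1G2, an adaptor subunit, at -0.24 ± 0.09 and AP4B1 at -0.18 ± 0.07. GGA1, GGA2 and GGA3, the adaptors that bind the sortilin tail and are named outside the rule, had log2 fold changes of -0.03, -0.08 and -0.09.

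Of 26 measured ligand and cargo genes, 3 passed at an unadjusted p of 0.05, all lower in CDK4KO. That is 11.5% of the list, below the 13.0% of all genes. PDGFB, a platelet-derived growth factor chain, had 10.4, 11.1, 12.9 and 9.92 CPM in CDK4WT and 4.58, 8.09, 6.64 and 3.73 CPM in CDK4KO, without overlap (-0.94 ± 0.21, edgeR adjusted p = 0.126, DESeq2 0.00274). CTSH, the lysosomal protease cathepsin H, stood at 8.20 CPM ± 0.898 and 5.75 CPM ± 0.352, again without overlap (-0.51 ± 0.11, edgeR adjusted p = 0.114). LPL, the lipoprotein lipase that sortilin and SorLA bind, had 7.52, 3.86, 7.07 and 1.77 CPM in CDK4WT and 1.5, 2.83, 1.84 and 1.69 CPM in CDK4KO, which overlap (-1.36 ± 0.42, edgeR adjusted p = 0.233). Muscle and fat markers (ADIPOQ, FABP4, LEP and CKM not among those measured) summed to 31.0, 17.9, 11.5 and 16.3 CPM in CDK4WT and 10.6, 11.6, 10.3 and 6.91 CPM in CDK4KO over the 4 of 13 measured. Like SORCS3 and LPL they were highest in CDK4WT replicate 1, and their part in those values was not tested.

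The best-known ligands were abundant and differed by at most 0.10 on the log2 scale. Named outside the rule, GRN, the progranulin gene, was at 407 CPM ± 30.7 and 435 CPM ± 27.2. PSAP, the prosaposin gene, was at 1072 CPM ± 137 and 1042 CPM ± 42.1, and APP at 748 CPM ± 61.4 and 765 CPM ± 60.6 (SD, n = 4 each). BDNF, a neurotrophin, stood at 16.9 CPM ± 1.29 and 16.3 CPM ± 1.26.

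Of the 5 measured co-receptor genes, 2 were higher in CDK4KO at an unadjusted p of 0.05 (40.0% of this short list, against 13.0% of all genes). NTSR1, a neurotensin receptor, stood at 0.59 ± 0.26 on the log2 scale and IL6ST, the gp130 signalling chain, at 0.24 ± 0.11 (edgeR adjusted p = 0.365 and 0.372). Among 16 proteases and partners that shed or cleave such receptors, 1 was higher and 3 were lower (25%, against 13.0% of all genes). RHBDF2, which matures the sheddase ADAM17, was lower in every CDK4KO library at 51.6 CPM ± 2.10 against 60.5 CPM ± 2.98 (-0.23 ± 0.06, edgeR adjusted p = 0.166). NCSTN and APH1A, both gamma-secretase subunits, stood at -0.29 ± 0.10 and -0.15 ± 0.06, and BACE2, a secretase, at 0.25 ± 0.09.

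The 20 other lysosomal and lipoprotein sorting receptors had 5 lower and 0 higher genes at that unadjusted threshold (25%), with a median of -0.05 and 15 of 20 negative. LRP4, an LDL receptor family member, had 13.3, 9.47, 11.3 and 10.6 CPM in CDK4WT and 6.39, 7.28, 8.29 and 7.95 CPM in CDK4KO. These do not overlap (-0.58 ± 0.13, edgeR adjusted p = 0.113, DESeq2 0.00539). LRP5, a WNT co-receptor, and VLDLR stood at -0.33 ± 0.11 and -0.35 ± 0.11, and LRP3, at 1.35 CPM ± 0.166 in CDK4WT, at -0.99 ± 0.29. The mannose 6-phosphate receptor genes M6PR and IGF2R, named outside the rule, were at -0.01 and 0.03.

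**Figure D5:**
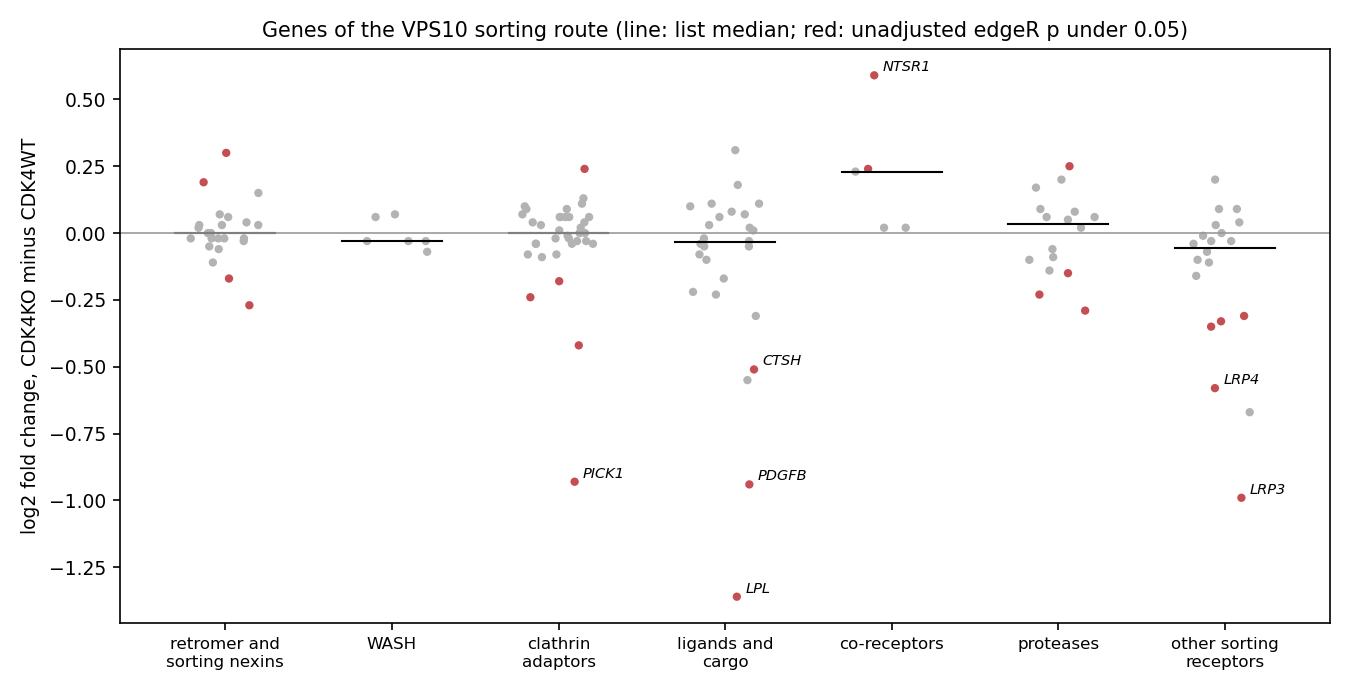
Log2 fold change, CDK4KO minus CDK4WT, of the 131 measured genes of the sorting route in 7 lists, with a line at each list's median and red for an unadjusted edgeR p under 0.05. Most genes lie near 0, and PICK1, PDGFB and LPL lie lowest among the coat and cargo genes. Of the 20 other sorting receptors 5 are red, all below 0, where 13.0% of all genes pass in either direction and 6.33% below 0.

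Host-type markers were read for values that move with the receptors. Endothelial markers (9 of 12 measured, CDH5, EMCN and CLDN5 not among them) summed to 343 to 386 CPM in CDK4WT and 411 to 482 CPM in CDK4KO, higher in every CDK4KO library as SORL1 was. For replicates 1 to 4 the sums were 343, 379.7, 370.0 and 386 CPM in CDK4WT and 482, 411, 436 and 423 CPM in CDK4KO. Within each genotype the libraries thus ranked in the reverse order of SORL1. Most of the endothelial sum was ESAM, ROBO4 and TIE1. ESAM averaged 140.2 and 159.9 CPM and ROBO4 109.6 and 159 CPM, while TIE1 stood the other way at 87.1 and 76.6 CPM (log2 fold change -0.19 ± 0.10) and overlapped. PECAM1 averaged 6.15 and 7.80 CPM and VWF 0.955 and 1.05 CPM. Neuron and Schwann cell markers (6 of 20 measured, SNAP25, RBFOX3 and SOX10 not among them) summed to 218 to 256 CPM in CDK4WT and 250.2 to 263 CPM in CDK4KO. Most of this sum was PMP22, MBP and SYT1, at 131, 46.1 and 40.5 CPM in CDK4WT and 131, 52.2 and 57.0 CPM in CDK4KO. Macrophage markers (8 of 12) summed to 122 to 171 and 114 to 242 CPM, and fibroblast and pericyte markers (8 of 12) to 819 to 1239.6 and 716 to 1247 CPM. The part of these cell types in the receptor values was not tested.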

How the data were processed

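RNA from 8 tumours, 4 per genotype, was sequenced as mRNA libraries. The authors deposited raw counts, whole reads per Ensembl gene. Per the submitters' processing notes, reads were handled with cutadapt, STAR 2.7.11a and featureCounts 2.0.4 on hg38, with DESeq2 1.46.0 also named. For the strand setting, the annotation release and any removal of host reads, the steps were not given in the sources used here. Mouse transcripts may thus add to counts. CDK4KO columns were matched by library number.

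Symbols matched 13524 of 13546 identifiers, and coordinates of GENCODE 29, used here for annotation, 13455. edgeR 4.0.16 in R 4.3.3 (TMM scaling, filterByExpr, which removed 0 genes, robust quasi-likelihood test) was fitted on all genes with Benjamini-Hochberg adjustment. Each SE is implied by the F statistic. Simulated data with 13546 genes, all drawn with the same dispersion, gave back 82.1% of 1.5-fold and 100% of 2-fold changes. Genes that vary more between libraries, as SORCS3 did, were not simulated. The share recovered in the real data can therefore be lower. DESeq2 1.42.0, limma 3.58.1 voom with quality weights, other scalings and filters, a replicate block and left-out libraries were alternatives. Members and lists were chosen with earlier results of these data known. Named genes are the family, CDK4, up to 4 per list with the smallest p under 0.05, the 5 nearest profiles and the flanking genes. MAGEC2, FOS, GRAMD1B, VWA5A and marker genes were named after their values were seen. The labels do not say that libraries came from separate mice, so each p reflects only how these libraries vary. Counting intervals cover counting error only.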

Additional observations from a re-analysis of the deposited data

Results flagged for a closer look

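Single libraries stood apart within 5 of the 52 genotype groups of 4 libraries examined. These groups cover the receptor family, CDK4 and the genes named from the lists, not the nearest profiles or the flanking genes. Each library was judged by its gap to the nearest other library as a share of the range. Chance sets a library apart in about 1 of 20 groups. None of the 5 is a VPS10 receptor. CDK4KO replicate 1 was lowest for IL6ST, at 212 CPM against 295 to 302 in the other CDK4KO libraries, and for RHBDF2, at 48.5 CPM against 52.3 to 53.0. ANKRD50 was highest in CDK4WT replicate 4, at 79.9 CPM against 75.5 to 76.2. AP4B1 was lowest in CDK4WT replicate 1, at 33.7 CPM against 39.7 to 40.6, and APH1A in CDK4WT replicate 2, at 124 CPM against 139 to 141.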

How the results depend on the processing

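The log2 fold changes of SORCS3, SORL1 and SORT1 kept their direction in every alternative run, from -7.01 to -5.78, 0.98 to 1.23 and -0.35 to -0.20. With a filter of 5 CPM in 4 libraries SORCS3 was left out and has no value. The count of the 131 sorting-route genes past an unadjusted p of 0.05 ran from 17 to 26 against 23. The count of all genes past the adjusted test, 8 with 75.0% higher, moved: 315 with DESeq2, 285 with limma voom, 14 (50.0% higher) with library size only, 0 to 183 with 1 library left out (183 without CDK4KO replicate 1, 17 without CDK4KO replicate 4, 0 or 1 without any of the other 6), and 447 without CDK4KO replicates 1 and 4, a choice made after seeing the data. The cause was not tested. Deviations of same-numbered libraries had r = -0.0313, -0.0142, 0.00348 and 0.194 for replicates 1 to 4. This does not settle whether the numbers pair tumours. With the replicate block 13 genes passed. The SE of the log2 fold change was then 0.24 for SORCS3, 0.21 for SORL1 and 0.06 for SORT1, against 0.96, 0.17 and 0.10 in the main fit. With raw counts and a prior count of 0.5 the SORCS3 to SORL1 log2 ratio differed by -7.23 between genotypes, and the SORL1 to SORT1 ratio by 1.38. Depth limits SORCS3 in CDK4KO, where 15 reads have an exact 95% interval of 8.40 to 24.7.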
